A study of Mus musculus with 24 samples.

Results

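The creatine kinase system and the adenylate enzymes that buffer ATP beside it were followed in heart polyA RNA through 10 genes. They form a list of names whose rule uses no measured value, drawn up with earlier results of these data known: the creatine kinases Ckm, Ckmt2, Ckb and Ckmt1, the creatine transporter Slc6a8, the creatine synthesis enzymes Gatm and Gamt, the adenylate kinases Ak1 and Ak4, and the AMP deaminase Ampd3. All 10 were among the 23998 genes of the table and all 10 passed the filter on low values, a mean of at least 1 FPKM (fragments scaled by transcript length and by library size) over the 13 libraries. The mice, on a CD1 background, were RLC transgenic animals carrying a human allele of MYL2, which codes for a myosin regulatory light chain of the ventricle. Hearts were taken at 4 months of age. The groups were mutant-transgene hearts given the AAV9 virus with the M7.8L shRNA (4 libraries, replicates 5 to 8), mutant hearts given control virus (3, replicates 1 to 3), mutant hearts without virus (3, replicates 9 to 11) and wild-type-transgene hearts given control virus (3, replicates 2 to 4). Virus had been injected into the jugular vein at 3 days of age, 25 µl for each animal, and the control virus was an AAV9 that did not express the shRNA. Wild type here means the normal human allele, so every group carried a transgene. The genotype field read RLC-47K L6 in all samples, so mutant and wild type were taken from the sample names. For the promoter of the transgene the sources used here name none. Each replicate number names 1 sample. The labels do not state that these came from separate animals, so p-values measure the spread between samples.

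Creatine kinases move a phosphate group between ATP and creatine. In heart muscle the mitochondrial form, Ckmt2, makes phosphocreatine where ATP is produced, and the cytosolic M form, Ckm, regenerates ATP from it beside the myofibrils and calcium pumps; the B form, Ckb, is the cytosolic form of brain, smooth muscle and fetal heart, and Ckmt1 is the mitochondrial form of tissues other than striated muscle. Creatine is made from arginine and glycine by Gatm and then Gamt, largely outside the heart, and enters cardiomyocytes through Slc6a8. Adenylate kinases such as the cytosolic Ak1 and the mitochondrial matrix form Ak4 interconvert adenine nucleotides, and Ampd3 removes AMP by deamination to IMP.

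The libraries differed in overall scale. Over 13875 genes the median shift of log2(FPKM + 1) was lowest in untreated mutant replicate 10, at -0.50, and highest in shRNA replicate 8, at 0.77, so each difference is given as deposited and, where named "aligned", after removal of these shifts. The steps between low FPKM values gave the FPKM of 1 fragment in each library, from 0.327 to 1.61 times that of wild-type replicate 3. Summed FPKM divided by this step, a depth weighted by transcript length, was 0.888 to 1.77 times that of the same library. Of 1732 genes above 0 in 3 to 8 libraries, 87.9% had only whole multiples of a step within 0.1. That step was the smallest value of the gene over 1, 2 or 3, whichever fitted best. By the Y-linked gene Ddx3y, with a limit of 5 FPKM, shRNA replicates 5 to 7 were male and replicate 8 female, all 3 mutants with control virus were female, and the other groups held 2 males and 1 female each. Sex and the shRNA group can therefore not be told apart in the comparison with control virus, apart from replicate 8. Where sex is in the model and replicate 8 is left out, the sex term comes from the untreated and wild-type hearts alone. Such a fit cannot separate sex from shRNA in that comparison. The row for human MYL2 held 228.8 to 419.6 FPKM in shRNA replicates 5 to 7 and was listed at 0 in the other 10 libraries, while 0 FPKM stood in every library for the row named shRNA, so neither row checks the labels. As deposited, replicate 8 also had the highest summed fibroblast (3676 FPKM), macrophage (1792 FPKM) and smooth muscle (1119 FPKM) markers of the 13 libraries. It had the highest median shift too, and these sums were not aligned. Most of its smooth muscle sum was Acta2 (1059 FPKM). Results that rest on replicate 8 are given with and without it. The row for the ribosomal RNA Rn45s held 16280 to 22530 FPKM in shRNA replicates 5 to 7, and was listed at 0 in shRNA replicate 8 and in the 3 mutants with control virus. In untreated replicates 9 to 11 it held 11560, 8645 and 0 FPKM, and in wild-type replicates 2 to 4 it held 0, 15050 and 18960 FPKM. Its part in the differences below was not tested. The 8 cardiomyocyte markers, all detected in every group, summed to 105000 to 195100 FPKM in shRNA hearts, 55070 to 72820 in mutants with control virus, 42770 to 59820 in untreated mutants and 89110 to 102800 in wild-type hearts. This sum moved with Ckm, Ckmt2 and Ak1, and its part in the differences below was not tested. In whole hearts, fewer cells of a type and less RNA per cell cannot be told apart. The 6 skeletal muscle markers summed to at most 2.70 FPKM in any library.

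Ckm and Ckmt2 were among the most abundant transcripts of these hearts. By its mean in wild-type hearts Ckmt2 ranked 24 and Ckm ranked 30 of 23998 genes on the FPKM scale, which is per length of transcript. Ak1 ranked 179, Slc6a8 903 and Ckb 2018, and Ckmt1 was last of the set at 13699. In wild-type hearts the order of levels was Ckmt2 (4244 ± 202 FPKM), Ckm (3244 ± 200), Ak1 (786 ± 47.0), Slc6a8 (152 ± 25.9), Ckb (71.4 ± 18.3), Ak4 (28.1 ± 1.43), Ampd3 (24.6 ± 2.13), Gamt (10.2 ± 2.08), Gatm (7.42 ± 2.90) and Ckmt1 (0.427 ± 0.200, SD, n = 3). Among neighbours in that order, the libraries of Gamt and Gatm overlapped and those of every other pair did not. The order was not the same in each group. In shRNA hearts the mean of Ckm (5120 ± 1993 FPKM, SD, n = 4) was above that of Ckmt2 (4821 ± 791), with overlapping libraries. In mutants with control virus or no virus the mean of Gatm was above that of Gamt, with no overlap between the libraries of the 2 genes. The mean of Gatm (19.4 FPKM) was above that of Gamt (14.3) in shRNA hearts too, but below it without replicate 8 (9.25 against 14.1). Ampd3 had a higher mean than Ak4 with control virus (23.1 against 20.2 FPKM) and in untreated mutants (19.3 against 13.3).

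**Figure D1:**
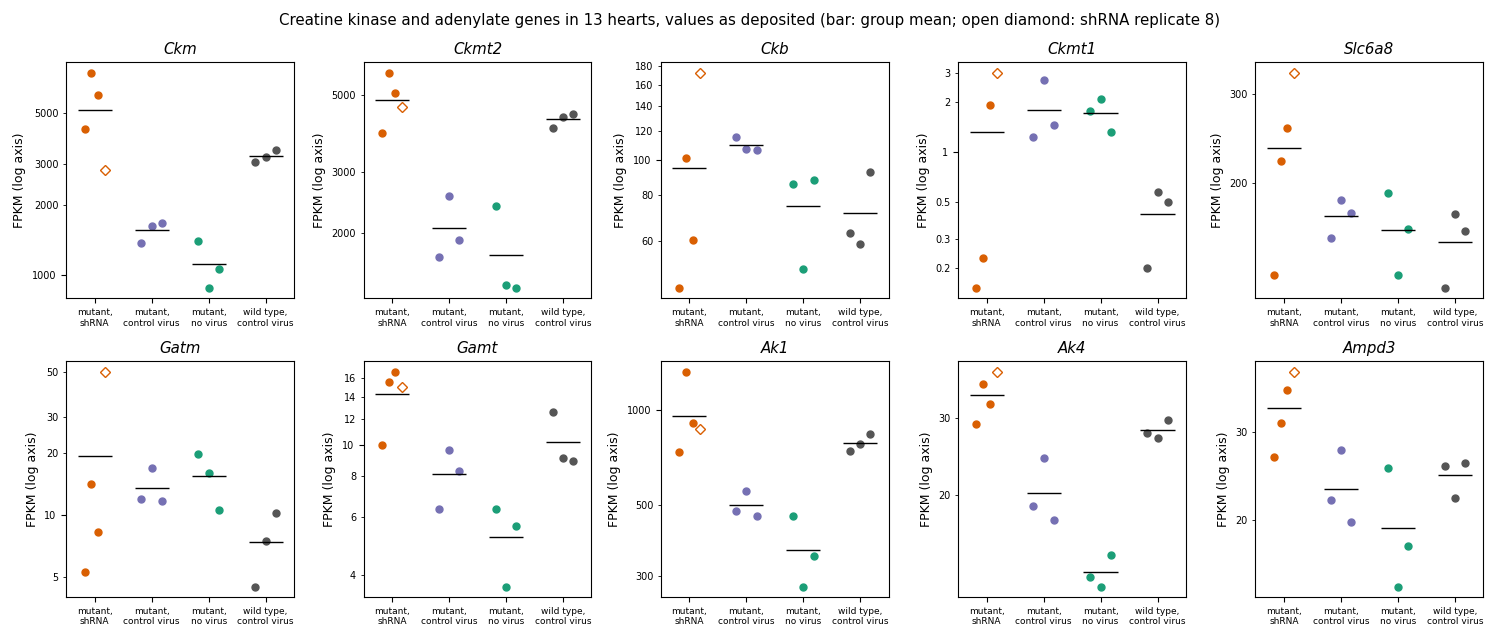
FPKM as deposited (log axes) of the 10 genes in each of 13 hearts, with mutant hearts given shRNA, mutant hearts given control virus, mutant hearts without virus and wild-type hearts given control virus from left to right. Points are libraries, bars are group means, and the open diamond is shRNA replicate 8. All 6 mutant hearts without shRNA lie below all 3 wild-type hearts for Ckm, Ckmt2, Ak1 and Ak4.

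Sequences around the starts of the 4 creatine kinase genes are shown side by side, since Ckm and Ckmt2 were low in mutants without shRNA while Ckb and Ckmt1 were not. Each is a RefSeq window of GRCm38.p6 from 250 bases before to 50 after the annotated start, 5′ to 3′ on the strand of the gene, at chr7:19410844-19411143 on the plus strand (Ckm), chr13:91876836-91877135 on the minus strand (Ckmt2), chr12:111672289-111672588 on the minus strand (Ckb) and chr2:121357526-121357825 on the plus strand (Ckmt1, the first of 2 windows of this gene). Capitals in them mark matches to CANNTG, the E-box letters bound by basic helix-loop-helix factors, to AGGTCA, a nuclear receptor half-site, or to TATAAA, searched on both strands.
Ckm: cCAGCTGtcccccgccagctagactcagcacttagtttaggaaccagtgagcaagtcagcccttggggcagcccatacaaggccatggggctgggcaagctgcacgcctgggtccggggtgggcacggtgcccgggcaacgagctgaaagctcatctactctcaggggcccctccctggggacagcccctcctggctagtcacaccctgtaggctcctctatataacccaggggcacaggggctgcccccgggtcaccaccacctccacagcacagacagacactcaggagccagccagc
Ckmt2: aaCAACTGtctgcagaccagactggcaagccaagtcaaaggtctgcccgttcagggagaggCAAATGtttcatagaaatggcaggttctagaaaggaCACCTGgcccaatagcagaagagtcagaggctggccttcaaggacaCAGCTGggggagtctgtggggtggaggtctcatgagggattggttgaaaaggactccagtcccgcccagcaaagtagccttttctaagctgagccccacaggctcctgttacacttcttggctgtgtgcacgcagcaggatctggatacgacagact
Ckb: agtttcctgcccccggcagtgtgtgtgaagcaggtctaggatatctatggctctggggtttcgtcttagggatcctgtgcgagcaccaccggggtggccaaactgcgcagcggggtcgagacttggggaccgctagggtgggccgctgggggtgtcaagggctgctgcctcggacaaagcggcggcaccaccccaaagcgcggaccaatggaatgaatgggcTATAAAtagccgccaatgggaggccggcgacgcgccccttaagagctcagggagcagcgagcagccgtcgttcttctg
Ckmt1: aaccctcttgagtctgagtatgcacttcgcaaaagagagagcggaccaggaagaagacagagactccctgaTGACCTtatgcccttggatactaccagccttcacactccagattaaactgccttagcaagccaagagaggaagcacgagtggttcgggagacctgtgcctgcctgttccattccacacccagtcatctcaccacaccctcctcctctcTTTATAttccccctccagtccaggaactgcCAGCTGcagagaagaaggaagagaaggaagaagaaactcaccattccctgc
The Ckm window held 1 E-box match, which began at position -249 relative to the start. The Ckmt2 window held 4, beginning at -248, -189, -153 and -107. The Ckb window held 0 E-box matches and 1 TATAAA match at -28. The Ckmt1 window held 1 E-box match at -1, 1 TATAAA match at -31 and 1 AGGTCA match at -179, the last 2 on the other strand. AGGTCA matched in 0 of the other 3 windows. Of 32851 RefSeq windows of the same length, 72.3% held CANNTG, 16.3% AGGTCA and 13.6% TATAAA, so an E-box match is common. A window was found for 9 of the 10 genes.

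Ckm, the muscle cytosolic creatine kinase, was lower in mutant hearts without shRNA than in wild-type hearts and higher in shRNA hearts than in other mutants. It measured 4269, 7416, 5960 and 2837 FPKM in shRNA replicates 5 to 8. In mutants with control virus it measured 1380, 1629 and 1683 FPKM, in untreated mutants 1402, 883 and 1067 FPKM, and in wild-type hearts 3063, 3211 and 3458 FPKM. The 6 mutant hearts without shRNA were all below the wild-type range, shRNA replicates 5 to 7 were all above it, and replicate 8 was below it but above every other mutant. Against wild-type hearts Ckm fell by 1.06 on the log2 scale in mutants with control virus (SE 0.316, limma adjusted p = 0.0436) and by 1.56 in untreated mutants (SE 0.316, adjusted p = 0.00328). The first of these calls was lost after alignment (-0.93, adjusted p = 0.0794), and when any 1 of the 6 compared libraries was left out (adjusted p = 0.0753 to 0.165). It was also lost with sex in the model (adjusted p = 0.259). Aligned, with sex in the model and without shRNA replicate 8 it passed (-0.97, adjusted p = 0.00132). The second was kept after alignment (-1.23, adjusted p = 0.0315). Against mutants with control virus, Ckm rose in shRNA hearts by 1.63 (SE 0.296, adjusted p = 0.00114, aligned 1.17 with adjusted p = 0.0298). Aligned and with sex in the model that call was lost (0.77, adjusted p = 0.279). Within the female hearts of that comparison the values were 2837 FPKM in the 1 shRNA heart and 1380 to 1683 FPKM in the 3 with control virus, and after alignment that shRNA heart, at 1662 FPKM, lay inside the range of 1498 to 2092 FPKM of those mutants. Ckm was also divided, within each library and with no test, by each of the 8 cardiomyocyte markers (Tnnt2, Tnni3, Actc1, Ryr2, Pln, Myl3, Tnnc1 and Mb). Mutants with control virus were all below the wild-type hearts for 4 of the 8 ratios and untreated mutants for 7, and the others overlapped. The shRNA hearts were all above mutants with control virus for 2 of the 8 ratios and overlapped them for 6. With Tnnt2, the cardiac troponin T transcript, Ckm was 0.185 to 0.280 in shRNA hearts, 0.168 to 0.225 in mutants with control virus, 0.182 to 0.208 in untreated mutants and 0.277 to 0.295 in wild-type hearts. With Tnni3, the cardiac troponin I transcript, it was 0.345 to 0.368, 0.309 to 0.472, 0.324 to 0.382 and 0.326 to 0.337 in the same 4 groups, so how Ckm stood relative to cardiomyocyte transcripts depended on the marker.

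Ckmt2, the mitochondrial creatine kinase of striated muscle, differed in the same directions. It measured 3882, 5768, 5039 and 4594 FPKM in shRNA replicates 5 to 8. Control-virus mutants had 1715, 2561 and 1918 FPKM, untreated mutants 2393, 1417 and 1396 FPKM, and wild-type hearts 4015, 4319 and 4398 FPKM. Every shRNA heart was above every other mutant, and the shRNA and wild-type ranges overlapped. Against wild-type hearts Ckmt2 fell by 1.06 in mutants with control virus (SE 0.279, adjusted p = 0.0258, aligned -0.93 with adjusted p = 0.0161). That call was lost when mutant replicate 1 or 3 or any wild-type library was left out (adjusted p = 0.0797 to 0.127), and with sex in the model (adjusted p = 0.146). In untreated mutants it fell by 1.34 (adjusted p = 0.00386, aligned adjusted p = 0.0126). It rose in shRNA hearts against mutants with control virus by 1.23 (SE 0.261, adjusted p = 0.00245, aligned 0.77 with adjusted p = 0.0221). This call was lost with quantile normalization (0.33, adjusted p = 0.0725), with sex in the model and without replicate 8 (1.09, adjusted p = 0.0788), and aligned with sex in the model (0.53, adjusted p = 0.221). Over the 8 cardiomyocyte markers, mutants with control virus were all below wild-type hearts for 3 ratios of Ckmt2, above them for 1 and overlapping for 4. The shRNA hearts were all above mutants with control virus for 1 ratio of Ckmt2 and overlapped them for 7. Relative to Tnnt2, Ckmt2 stood at 0.245 to 0.264 in mutants with control virus and 0.370 to 0.375 in wild-type hearts, and relative to Tnni3 at 0.486 to 0.538 and 0.419 to 0.441 in the same groups.

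The balance between the abundant forms set shRNA replicates 5 to 7 apart, while the ranges of all 4 groups overlapped. Ckm over Ckmt2 was 1.10, 1.29, 1.18 and 0.618 in shRNA replicates 5 to 8, against 0.805, 0.636 and 0.877 in mutants with control virus. It was 0.586, 0.623 and 0.764 in untreated mutants and 0.763, 0.743 and 0.786 in wild-type hearts. Replicates 5 to 7 were above every other heart, replicate 8 was among the untreated mutants, and the wild-type range lay inside that of mutants with control virus. These ratios are free of the scale of a library and were not tested. The 4 creatine kinases together held 0.533% to 0.812% of all FPKM in shRNA hearts, 0.427% to 0.535% in mutants with control virus, 0.405% to 0.485% in untreated mutants and 0.733% to 0.786% in wild-type hearts.

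Ckb, the brain-type cytosolic form, had another order of groups than Ckm. It measured 44.6, 101, 60.4 and 173 FPKM in shRNA replicates 5 to 8. Control-virus mutants had 116, 107 and 106 FPKM, untreated mutants 85.5, 50.2 and 88.1 FPKM, and wild-type hearts 63.1, 58.7 and 92.3 FPKM. The shRNA hearts spanned the range of all groups, and all 3 mutants with control virus were above all 3 wild-type hearts. The difference of mutants with control virus from wild type was 0.64 with a 95% interval of -0.15 to 1.43 (adjusted p = 0.307, aligned 0.77 with adjusted p = 0.0597). For shRNA hearts against mutants with control virus it was -0.40 (interval -1.14 to 0.34, adjusted p = 0.374) as deposited and passed after alignment (-0.85, adjusted p = 0.0328). Without replicate 8 it passed as deposited too (-0.75, adjusted p = 0.0356), and aligned, with sex in the model and without replicate 8, it was -0.52 (adjusted p = 0.131). Without replicate 8 neither fit can tell sex from shRNA.

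As a share of the 4 creatine kinases, Ckb was larger in mutant hearts without shRNA. It was 0.544%, 0.759%, 0.546% and 2.27% in shRNA replicates 5 to 8, a mean of 1.03% ± 0.832 (SD, n = 4), or 0.616% ± 0.123 without replicate 8 (n = 3). Control-virus mutants had a share of 2.98% ± 0.565, untreated mutants 2.60% ± 0.741 and wild-type hearts 0.939% ± 0.200 (SD, n = 3 each). The lowest of the 6 mutants without shRNA, at 2.14%, was above the highest wild-type heart, at 1.16%. A lower sum of Ckm and Ckmt2 raises this share by itself, as their levels set the denominator. Summed markers of some other cell types differed between the groups too. The 4 smooth muscle markers, all detected, summed to 61.1 to 101 FPKM in shRNA replicates 5 to 7 and 1119 in replicate 8, 685 to 1060 in mutants with control virus, 392 to 685 in untreated mutants and 170 to 335 in wild-type hearts. Most of this sum was Acta2, while Myh11 was 5.87 to 8.01 FPKM in mutants with control virus and 14.1 to 15.8 FPKM in wild-type hearts. The 6 fibroblast markers summed to 831 to 3676 FPKM in shRNA hearts, 1727 to 2673 in mutants with control virus, 1589 to 2138 in untreated mutants and 787 to 1154 in wild-type hearts. Sums for 3 other cell types were lower in mutants without shRNA than in wild-type hearts, or overlapped them. The 4 endothelial markers summed to 341 to 534 FPKM in shRNA hearts, 166 to 231 in mutants with control virus, 178 to 231 in untreated mutants and 300 to 338 in wild-type hearts. The 4 neuronal markers summed to 10.4 to 24.3, 5.73 to 9.65, 5.95 to 9.06 and 10.4 to 11.3 FPKM in the same 4 groups, and the 4 adipocyte markers to 50.6 to 101, 40.2 to 73.8, 34.4 to 52.2 and 62.6 to 71.9 FPKM. Most of the neuronal sum was Stmn2, and Snap25 was at 0 FPKM in every library. Most of the adipocyte sum was Cidea, and Ucp1 was at 0 FPKM in every library. Each of these 2 sums is thus mainly the level of 1 gene. The part of these cells in the Ckb share was not tested.

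**Figure D2:**
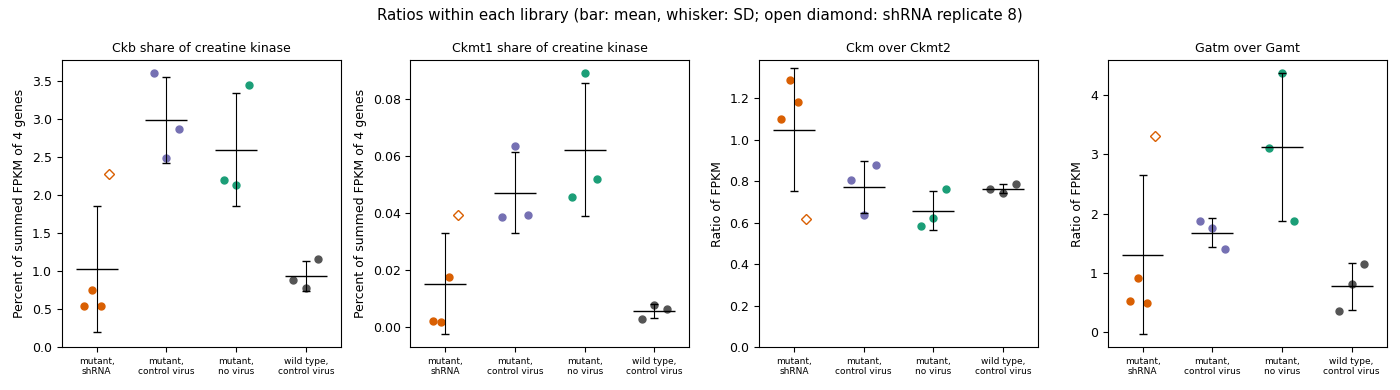
Ratios within each library for the 4 groups, from shRNA at the left to wild type at the right: the Ckb and Ckmt1 shares of the 4 creatine kinases in percent, and the ratios Ckm over Ckmt2 and Gatm over Gamt. Points are libraries, bars are means with SD, and the open diamond is shRNA replicate 8, whose Ckb share was 2.27% where replicates 5 to 7 were at 0.544% to 0.759%.

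Ckmt1, the ubiquitous mitochondrial form, was near the limit of detection. It measured 0.153, 0.232, 1.93 and 2.99 FPKM in shRNA replicates 5 to 8, and 1.23, 2.73 and 1.46 FPKM in mutants with control virus. In untreated mutants it measured 1.78, 2.09 and 1.32 FPKM, and in wild-type hearts 0.201, 0.578 and 0.503 FPKM. The smallest value, that of shRNA replicate 5, was taken as 1 fragment, and the others were scaled by the relative step sizes of the libraries. The values then correspond to about 1, 1, 10 and 16 fragments in shRNA hearts, 14, 19 and 25 in mutants with control virus, 15, 23 and 28 in untreated mutants and 2, 4 and 3 in wild-type hearts. The farthest lay 0.153 from a whole number. If the smallest value held more than 1 fragment, all these numbers and the intervals below would be larger. Exact Poisson intervals, which cover counting error only, were 0.242 to 7.22 for the 2 fragments of wild-type replicate 2 and 7.65 to 23.5 for the 14 of mutant replicate 1. Those of wild-type replicates 3 and 4, 1.09 to 10.2 and 0.619 to 8.77, overlapped the interval of that mutant. All 6 mutants without shRNA were above all 3 wild-type hearts, and shRNA replicates 5 and 6 were with the wild type while 7 and 8 were with the mutants. As deposited, the difference from wild type did not pass in mutants with control virus (0.95, adjusted p = 0.151) or in untreated mutants (0.93, adjusted p = 0.113). After alignment both passed (1.07 with adjusted p = 0.0403 and 1.27 with adjusted p = 0.0234), and without shRNA replicate 8 both passed as deposited (adjusted p = 0.0258 and 0.0208). Because 1 is added to each value before the log, the differences as deposited understate the change of so low a gene. Alignment takes the same shift from log2(FPKM + 1) at every level, which is not a change of scale for a gene near 0 FPKM. In shRNA replicate 6 it gave an aligned value of -0.0869 FPKM, lower than any FPKM can be. The aligned calls of Ckmt1 therefore rest in part on the shift itself. Ckmt1 lies beside Strc and overlaps it and Gm33947 in the annotation, and with no strand setting of the counting on record, shared reads are possible.

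Of the genes that supply creatine, the transporter Slc6a8 varied least between groups. It measured 131, 221, 257 and 331 FPKM in shRNA replicates 5 to 8 and 155, 184 and 174 FPKM in mutants with control virus. Untreated mutants had 191, 131 and 162 FPKM and wild-type hearts 124, 174 and 160 FPKM. All 4 ranges overlapped as deposited. After alignment all mutants without shRNA were above all wild-type hearts. The difference of mutants with control virus from wild type was 0.18 with a 95% interval of -0.43 to 0.79 (adjusted p = 0.760), and that of shRNA hearts from mutants with control virus was 0.38 with an interval of -0.19 to 0.95 (adjusted p = 0.268). Both intervals hold no change as well as an increase. Without shRNA replicate 5 the second difference passed (0.63, adjusted p = 0.0244), and after alignment it was -0.07 (adjusted p = 0.728), so its sign depended on the scaling. Untreated mutants differed from wild type by 0.08 as deposited (adjusted p = 0.873) and by 0.41 after alignment (interval 0.07 to 0.75, adjusted p = 0.0694). That difference passed with quantile normalization (0.57, adjusted p = 0.0374) and aligned without shRNA replicate 8 (0.41, adjusted p = 0.038).

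Gatm and Gamt, which make creatine in 2 steps, had opposite signs in mutants without shRNA. Gatm, the first enzyme, measured 5.28, 14.2, 8.24 and 49.8 FPKM in shRNA replicates 5 to 8, and 11.9, 16.9 and 11.7 FPKM in mutants with control virus. It measured 19.8, 16.1 and 10.6 FPKM in untreated mutants and 4.49, 7.47 and 10.3 FPKM in wild-type hearts. All 6 mutants without shRNA were above the wild-type hearts, and as deposited shRNA replicate 8 was far above every other heart. After alignment that heart was at 28.8 FPKM, and the next highest, untreated replicate 10, was at 23.2 FPKM. The difference from wild type did not pass as deposited in mutants with control virus (0.83, adjusted p = 0.347) or in untreated mutants (0.99, adjusted p = 0.191), but the second passed after alignment (1.32, adjusted p = 0.0430). Without shRNA replicate 8, which then no longer entered the shared spread, both passed as deposited (adjusted p = 0.0493 and 0.0144). Between shRNA hearts and mutants with control virus Gatm differed by 0.02 (adjusted p = 0.973) with all libraries, and aligned without replicate 8 by -0.89 (adjusted p = 0.00639). With sex in the model as well it was -0.85 and did not pass (adjusted p = 0.0868). Without replicate 8 neither fit can tell sex from shRNA in this comparison.

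Gamt, the second enzyme, measured 9.98, 15.5, 16.7 and 15.1 FPKM in shRNA replicates 5 to 8, and 6.36, 9.64 and 8.33 FPKM in mutants with control virus. It measured 6.36, 3.68 and 5.64 FPKM in untreated mutants and 12.6, 9.11 and 8.92 FPKM in wild-type hearts. Untreated mutants were all below the wild-type hearts, and all 4 shRNA hearts were above all other mutants. Gamt fell in untreated mutants against wild type by 0.86 (SE 0.263, adjusted p = 0.0285) and rose in shRNA hearts against mutants with control virus by 0.74 (SE 0.246, adjusted p = 0.0278). Both calls were lost after alignment (-0.53 with adjusted p = 0.0784 and 0.29 with adjusted p = 0.280). The first was also lost without untreated replicate 10 or 11 or any wild-type library (adjusted p = 0.0626 to 0.163), and the second without shRNA replicate 6 or 7 or mutant replicate 1 or 3 (adjusted p = 0.0732 to 0.144) and with sex in the model (adjusted p = 0.0742). Control-virus mutants differed from wild type in Gamt by -0.30 with an interval of -0.85 to 0.25 (adjusted p = 0.518). Gatm over Gamt, which is free of the library scale and was not tested, was 0.529, 0.916, 0.494 and 3.31 in shRNA replicates 5 to 8, and 1.88, 1.75 and 1.41 in mutants with control virus. It was 3.12, 4.37 and 1.87 in untreated mutants and 0.356, 0.821 and 1.15 in wild-type hearts. shRNA replicates 5 to 7 were thus within the wild-type range and replicate 8 was among the untreated mutants.

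Ak1, the main cytosolic adenylate kinase of striated muscle, had the pattern of Ckm with a smaller range. It measured 738, 1313, 909 and 867 FPKM in shRNA replicates 5 to 8, and 478, 556 and 464 FPKM in mutants with control virus. It measured 463, 277 and 347 FPKM in untreated mutants and 743, 780 and 836 FPKM in wild-type hearts. All shRNA and wild-type hearts were above all other mutants. Ak1 fell in untreated mutants against wild type by 1.15 (SE 0.258, adjusted p = 0.00570, aligned -0.81 with adjusted p = 0.0174). The difference of control-virus mutants from wild type was -0.66 (adjusted p = 0.116, aligned -0.53 with adjusted p = 0.0671). It rose in shRNA hearts against mutants with control virus by 0.91 (SE 0.241, adjusted p = 0.00929), and did not pass after alignment (0.45, adjusted p = 0.0848) or without mutant replicate 3 (0.86, adjusted p = 0.0524). Ckm over Ak1 was 5.78, 5.65, 6.56 and 3.27 in shRNA replicates 5 to 8 and 2.89, 2.93 and 3.63 in mutants with control virus. Untreated mutants had 3.03, 3.18 and 3.07 and wild-type hearts 4.12, 4.12 and 4.14. The wild-type values were nearly equal, all 6 mutants without shRNA and shRNA replicate 8 were below them, and shRNA replicates 5 to 7 were above them. Relative to Ak1, Ckm was thus higher than in wild type only in shRNA replicates 5 to 7. Replicate 8 lay within the range of mutants with control virus. These ratios were not tested.

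Ak4, an adenylate kinase of the mitochondrial matrix, measured 29.0, 35.8, 32.2 and 38.2 FPKM in shRNA replicates 5 to 8, and 18.8, 24.3 and 17.5 FPKM in mutants with control virus. It measured 12.9, 12.3 and 14.6 FPKM in untreated mutants and 27.7, 27.0 and 29.7 FPKM in wild-type hearts. The 3 untreated mutants were below the 3 mutants with control virus, which were below all wild-type and shRNA hearts. Ak4 fell in untreated mutants against wild type by 1.03 (SE 0.211, adjusted p = 0.00350, aligned -0.70 with adjusted p = 0.0122) and rose in shRNA hearts against mutants with control virus by 0.72 (SE 0.198, adjusted p = 0.0112). The second call was lost after alignment (0.26, adjusted p = 0.176) and without mutant replicate 1 or 3 (adjusted p = 0.0592 and 0.0723). Mutants with control virus differed from untreated mutants by 0.56 (interval 0.12 to 1.01), which did not pass (adjusted p = 0.771, aligned 0.36 with adjusted p = 0.506).

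Ampd3, an AMP deaminase, measured 26.7, 31.4, 36.3 and 39.5 FPKM in shRNA replicates 5 to 8, and 19.8 to 27.6 FPKM in mutants with control virus. It measured 25.5, 14.7 and 17.8 FPKM in untreated mutants and 25.7, 22.2 and 26.0 FPKM in wild-type hearts. All 4 shRNA hearts were above the untreated mutants and the wild-type hearts, and the other ranges overlapped. It rose in shRNA hearts against untreated mutants by 0.78 (adjusted p = 0.00861), which was lost after alignment (0.12, adjusted p = 0.492). Against mutants with control virus the difference was 0.51 as deposited (adjusted p = 0.0843) and 0.06 after alignment (adjusted p = 0.761). Aligned differences of Ampd3 from wild type were 0.03 in mutants with control virus and -0.03 in untreated mutants, with intervals within -0.33 and 0.33. In the annotation Ampd3 overlaps Rnf141, B430319F04Rik and Gm39069.

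**Figure D3:**
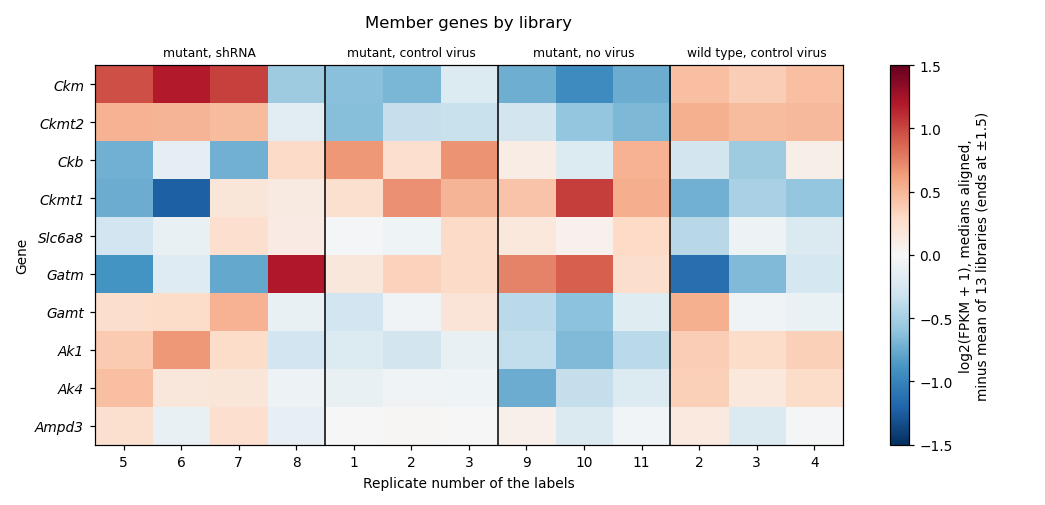
Aligned log2(FPKM + 1) of each gene minus its mean over the 13 libraries (colour scale ends at -1.5 and 1.5), with shRNA hearts at the left and wild-type hearts at the right. In shRNA replicates 5 to 7 Ckm is above and Ckb below its mean, while in replicate 8 Ckm is below its mean and Gatm has the highest colour value of its row.

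The calls among the 10 genes were counted beside the share of all genes called. In mutants with control virus against wild type 2 of 10 passed, both lower (Ckm and Ckmt2), where 9.5% of all 12980 tested genes passed and 7.35% of all tested genes passed as lower. In untreated mutants against wild type 5 of 10 passed, all lower (Ckm, Ckmt2, Gamt, Ak1 and Ak4), where 20.7% of all genes passed and 19.2% of all genes passed as lower. These 2 comparisons share the wild-type hearts and are not independent. Libraries of 7 of the 10 genes did not overlap in each of these comparisons, where 42.1% and 48.9% of all genes did not. The median difference of the 10 genes was -0.20 in the first, against -0.14 for all tested genes, and -0.61 in the second, against -0.33. After alignment 2 passed in the first (Ckmt2 lower and Ckmt1 higher, where 23.5% of all genes passed) and 6 in the second (Ckm, Ckmt2, Ak1 and Ak4 lower, Ckmt1 and Gatm higher, where 25.1% did). The aligned calls of Ckmt1 carry the limit given above for a gene near 0 FPKM.

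In shRNA hearts against mutants with control virus 5 of 10 passed, all higher (Ckm, Ckmt2, Gamt, Ak1 and Ak4), where 35% of all genes passed and 33.4% were higher. The same 5 were those whose libraries did not overlap, as was so for 31.2% of all genes. The median was 0.62, against 0.47 for all tested genes. After alignment 3 passed, with Ckm and Ckmt2 higher and Ckb lower, where 25.3% of all genes passed. Aligned and with sex in the model 0 of 10 passed, where 0.324% of all genes did. Leaving out replicate 8 as well, 4 passed (Ckm, Ckmt2, Ak1 and Ak4, all higher), where 30.2% of all genes did. The shRNA hearts of that fit were all male and the mutants with control virus all female, so it cannot tell sex from shRNA. Against untreated mutants 6 of 10 rose (the same 5 and Ampd3), where 54.8% of all genes passed and 53.6% were higher, so the count was near the background. After alignment 6 passed there too, with Ckm, Ckmt2, Gamt, Ak1 and Ak4 higher and Ckmt1 lower (-1.09, adjusted p = 0.0251), where 30.5% of all genes passed. As deposited Ckmt1 differed by -0.42 there (adjusted p = 0.346), so its aligned call with all libraries rests in part on the shift of the libraries. Without replicate 8 Ckmt1 passed there as deposited too (-0.75, adjusted p = 0.0394).

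Between shRNA and wild-type hearts 0 of 10 passed by limma, where 0.108% of all genes passed, and 0 had an unadjusted p under 0.05. After alignment 0 of 10 passed, where 0.0847% of all genes did. The interval was widest for Gatm, -0.18 to 1.88, and for Ckm it was -0.05 to 1.19, so these data do not show equal levels. Aligned, with sex in the model and without replicate 8, Ckm was higher in shRNA hearts by 0.66 (adjusted p = 0.0234) and was the 1 gene of the 10 that passed, where 6.09% of all genes did. Ckmt2 was at -0.04 in that fit (adjusted p = 0.890). Between mutants with control virus and untreated mutants 0 of 10 passed, where 0% of all genes passed, and 2 of 10 (Gamt and Ak4) had an unadjusted p under 0.05. The largest difference there was 0.59 for Ckb with an interval of -0.20 to 1.38.

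**Figure D4:**
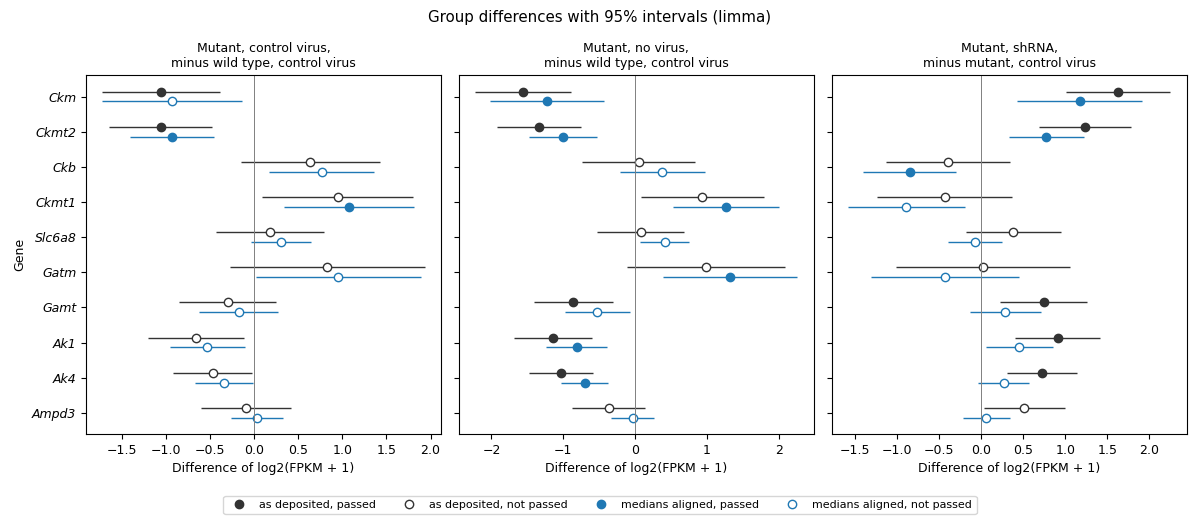
Differences of log2(FPKM + 1) with 95% intervals from limma for 3 comparisons, each gene as deposited (dark) and with library medians aligned (blue). Filled points passed at an adjusted p under 0.05. Ckm and Ckmt2 lie left of 0 in both comparisons with wild type and right of 0 for shRNA, while Ckmt1 lies on the other side in each panel.

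Other genes of adenine nucleotide metabolism were read from lists of 47 genes, of which 37 were tested. In mutants with control virus against wild type 1 rose and 5 fell, where 9.5% of all genes passed, and in untreated mutants 1 rose and 12 fell, where 20.7% did. In shRNA hearts against mutants with control virus 15 rose and 1 fell, a share near the 35% of all genes that passed. After alignment these counts were 4 and 4, 5 and 7, and 13 and 5, where 23.5%, 25.1% and 25.3% of all genes passed, so the excess of one direction was smaller. The median of the 37 was -0.12, -0.43 and 0.53 as deposited, close to those of all tested genes. The gene that fell in shRNA hearts as deposited was Nt5e, the cell-surface enzyme that makes adenosine from AMP. It averaged 32.8 ± 32.0 FPKM in shRNA hearts and 55.3 ± 9.13 in mutants with control virus (-1.10, adjusted p = 0.0420, aligned -1.56 with adjusted p = 0.0148). It rose in those mutants against 17.0 ± 2.70 FPKM in wild-type hearts (1.64, adjusted p = 0.0250, aligned 1.77 with adjusted p = 0.0112).

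Nt5c1a and Adk, enzymes of AMP and adenosine inside the cell, differed in the opposite direction to Nt5e. Nt5c1a, a cytosolic AMP nucleotidase of heart and skeletal muscle, was 8.22 ± 0.988 FPKM in mutants with control virus and 38.5 ± 6.94 in wild-type hearts, a fall of 4.26-fold (adjusted p = 0.00656, aligned adjusted p = 0.0264). It was 34.1 ± 16.3 FPKM in shRNA hearts, higher than in mutants with control virus by 1.75 (adjusted p = 0.00236, aligned 1.30 with adjusted p = 0.0751). Adk, which returns adenosine to AMP, was 154 ± 34.1 FPKM in mutants with control virus and 309 ± 36.1 in wild-type hearts (-1.02, adjusted p = 0.0302, aligned adjusted p = 0.0245), and rose to 467 ± 140 FPKM in shRNA hearts (1.57, aligned adjusted p = 0.0122). Adsl, of the purine nucleotide cycle, rose in shRNA hearts by 1.07 (aligned 0.61 with adjusted p = 0.0228). Of the other adenylate kinases 3 of 7 were tested. Ak3, a form of the matrix, rose in shRNA hearts against mutants with control virus by 1.02 (aligned adjusted p = 0.0277) and did not pass between mutants with control virus and wild type (adjusted p = 0.203).

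The next list held carriers and channels that pass nucleotides and phosphate across mitochondrial membranes. Of 8 tested, 2 fell in mutants with control virus against wild type, where 7.35% of all genes were lower. In shRNA hearts against mutants with control virus 5 rose, where 33.4% of all genes were higher. After alignment these counts were 0 and 4, where 23.5% and 25.3% of all genes passed in either direction. Slc25a5, Slc25a24 and Slc25a25 did not pass in either comparison and had differences of 0.07, 0.31 and 0.30 between mutants with control virus and wild type. Slc25a4, the heart form of the adenine nucleotide translocator, averaged 14741 ± 5570 FPKM in shRNA hearts and 4836 ± 1223 in mutants with control virus (1.55, adjusted p = 0.00217, aligned adjusted p = 0.0445). In wild-type hearts it averaged 10568 ± 285 FPKM (mutants with control virus against wild type -1.16, adjusted p = 0.0413, aligned adjusted p = 0.0696). Slc25a3, the phosphate carrier, differed by 1.43 and -0.94 in the same comparisons (adjusted p = 0.00137 and 0.0499, aligned 0.0285 and 0.0652). The outer membrane channels Vdac1 and Vdac3 rose in shRNA hearts by 1.10 and 1.12. Of the AMP-activated protein kinase genes, which code for a sensor of AMP, 3 of 8 rose in shRNA hearts against mutants with control virus, where 33.4% of all genes were higher: Prkaa2 (0.98), Prkab1 (1.56) and Prkag1 (1.01), each also after alignment, where 2 others were lower. Against wild type 0 of these 8 passed in mutants with control virus as deposited, and 1 was lower after alignment (Prkaa2, adjusted p = 0.0446). Got2, the mitochondrial aspartate aminotransferase, fell 2.31-fold in mutants with control virus (adjusted p = 0.0308, aligned adjusted p = 0.0510) and rose in shRNA hearts by 1.75 (adjusted p = 0.00102), and Nme2, a nucleoside diphosphate kinase, rose in shRNA hearts by 0.99.

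The genes with the most similar pattern were found by the root mean square difference of aligned log2(FPKM + 1), each gene centred on its mean, over the 13 libraries. For Ckm, whose own SD on that scale was 0.771, they were D10Jhu81e (0.0809), A930016O22Rik (0.0934) and Tpd52l1 (0.111). A930016O22Rik overlaps Ckm in the annotation, so reads of the 2 cannot be told apart here. For Ckmt2 (SD 0.500) they were Coq5 (0.0859), Tbrg4 (0.0884) and Oxnad1 (0.0912), and for Ak1 (SD 0.401) Ptges2 (0.0815), Prkaca (0.0888) and Ank1 (0.0944). The nearest genes were more distant for Ckb, with Ptms (0.172), Tradd (0.172) and Nol3 (0.173), for Gatm, with Esd (0.256), Tlr13 (0.275) and Gpm6b (0.275), and for Ckmt1, with Cd80 (0.250), BC064078 (0.257) and Gm15328 (0.261). Those of Slc6a8 were Nedd9, Man2b1 and Impact, those of Gamt Tbkbp1, Tenc1 and Adrb1, those of Ak4 Gprc5c, Pex26 and C130046K22Rik, and those of Ampd3 Mccc1os, Enox2 and Ddhd2. None of the 3 nearest to any of the 10 genes was another of the 10. All 13 points share the libraries from which each gene was read, and these are descriptions with no test.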

How the data were processed

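PolyA RNA of 13 hearts (100-base paired reads per the labels) was used; the small RNA libraries of 11 samples were not used here. The values deposited by the authors are FPKM, 1 column per library; the submitters' processing notes name FastQC 0.11.2, STAR 2.40, Cufflinks 2.2.1, Cuffdiff and build mm9, without roles. The annotation, the strand setting and library scaling are not named there. FPKM depends on transcript length and library composition, so a few very abundant genes can move all others. The column of wild-type replicate 4 carries the mark Aliquot_2.

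Genes averaging 1 FPKM or more (12980 of 23998) were fitted as log2(FPKM + 1) with limma 3.58.1 in R 4.3.3 (lmFit, eBayes with a trend, two-sided), 1 model of 4 groups without covariates; passing meant an adjusted p (Benjamini-Hochberg, over all tested genes) under 0.05. Differences are on that log2 scale. The procedure was tested on simulated data. The members and lists were chosen with earlier results of these data known. Named genes are the 10 members, from each pathway list up to 4 genes that passed in mutants with control virus against wild type or shRNA against control virus, by smallest adjusted p in the first, and for each member the 3 nearest patterns. Not every gene this rule names is reported here. Promoter windows are from RefSeq (GRCm38.p6) and carry no coordinates of the deposited table.

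Alternatives were a pseudocount of 0.1, a filter at 5 FPKM or none, alignment of library medians, quantile normalization, the compared groups alone, sex as a covariate, leaving out libraries, and a replicate block; alignment together with sex, and a crossed block, were added after seeing the data. Mutants and wild type with control virus share only the numbers 2 and 3.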

Additional observations from a re-analysis of the deposited data

Results flagged for a closer look

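Of 16 levels and within-library ratios examined in the 4 shRNA hearts, 2 ratios met the criterion described here. In these 2 ratios shRNA replicate 8 stood apart from the other 3 hearts of its group, with a gap to its nearest neighbour beyond Dixon's 95% critical value for 4 samples, which chance passes in about 1 of 20 groups. The Ckb share of the 4 creatine kinases was 2.27% in replicate 8, with 0.544% to 0.759% in replicates 5 to 7. Gatm over Gamt was 3.31 in replicate 8, with 0.494 to 0.916 in replicates 5 to 7. Replicate 8 was also the 1 female heart of its group and, as deposited, had the highest fibroblast, macrophage and smooth muscle marker sums. Those sums were not aligned, and its library had the highest median shift. The part of sex and of these sums in the 2 ratios was not tested.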

How the results depend on the processing

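The counts of the 10 genes that passed were 2 (mutants with control virus against wild type), 5 (untreated mutants against wild type), 5 (shRNA against control virus), 6 (shRNA against untreated), 0 (shRNA against wild type) and 0 (control virus against untreated). The first count was 0 with no filter, 1 with quantile normalization, 6 on the compared groups alone, 0 with sex as a covariate (1 without shRNA replicate 8), 6 aligned without replicate 8, 0 aligned with sex and 5 aligned with sex without replicate 8. Leaving out 1 library gave 0 to 4, the highest without shRNA replicate 8. The second was 8 aligned without replicate 8, with or without sex, and 4 to 7 on leaving out 1 library. The third was 3 aligned, 2 with quantile normalization, 3 on the compared groups alone, 1 with sex without replicate 8, 0 aligned with sex, and 2 to 7 on leaving out 1 library (2 without mutant replicate 3). The fifth was 1 aligned without replicate 8, with or without sex. The cause of these changes was not tested. The share of all genes called changed with the setting too, and is not given for the counts in this section. These counts alone therefore do not set the 10 genes apart from all genes. Among differences that passed as deposited or in the alternative, signs turned for Gatm, shRNA against control virus (-0.89 aligned without replicate 8), and for Ckb, shRNA against untreated (-0.67 aligned without replicate 8 and -0.50 with sex as well, against 0.19 with all libraries as deposited). Differences that passed in neither also turned sign, such as Slc6a8, shRNA against control virus (0.38 as deposited and -0.07 aligned). Of the 37 pathway genes, 1 passed with no filter between mutants with control virus and wild type (6 with it), and 17 aligned between shRNA and untreated (27 as deposited). Mean Ckb shares on leaving out 1 library ran from 0.616% to 1.19% in shRNA hearts, 2.67% to 3.23% with control virus and 2.17% to 2.83% untreated, and mean Ckm shares from 47.8% to 53.9%, 40.4% to 44.2% and 36.8% to 39.7%. With the replicate number as a block on the shared replicates 2 and 3 of mutants and wild type with control virus, 1 of the 10 genes passed. Their deviations were negatively correlated (r = -0.18 across 12980 genes, which are not independent replicates), and with the crossed pairing 6 passed. The crossed pairing was picked because of this correlation and is not given by the labels, so its count lends the calls no support. Ckmt1 rests on few fragments, and no alternative recovers more.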
